A study of Mus musculus with 62 samples.

Results

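The 7 genes described here are those of adult hemoglobin, of the first step of heme synthesis and of myoglobin: Hba-a1, Hba-a2, Hbb-bs, Hbb-bt, Alas2, Alas1 and Mb. They were taken by symbol from 4 expression tables that together list 35309 gene symbols, and all 7 were found in each table. The tables come from a study of ChREBP, a transcription factor that responds to sugar and is encoded by Mlxipl, in mouse skeletal muscle, and hold 54 muscle libraries and 8 libraries of the C2C12 muscle cell line. Values are FPKM, sequenced fragments scaled to the length of the transcript and to the mapped fragments of the library, so that levels of different genes are given per length.

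ChMKO mice carry ChREBP-flox alleles with exon 8 between loxP sites and the Mck-cre transgene, whose muscle creatine kinase promoter restricts Cre to striated muscle and leaves the gene intact in blood, vessel and other cells. Their controls, F/F, are littermates with the same floxed alleles and no Cre. All mice were males, 8 to 10 weeks old where nothing else was stated. The chow table holds gastrocnemius (GC) and soleus (SOL) of 5 F/F and 5 ChMKO mice, with both muscles taken as 1 mouse where their label numbers match. The stress table holds GC of F/F and ChMKO mice, 4 per group, kept under normoxia on chow (Norm), in a chamber set to an altitude of about 5500 m for 2 weeks (Hypo), or on a high-fructose diet with 68% of calories as fructose for 3 months (HFrD). The AAV table holds GC of C57BL6/J mice, 5 per group, 14 days after injection of AAV9 with a CMV promoter driving GFP (AAV-CON) or mouse ChREBP (AAV-ChREBP). The C2C12 table holds stable retroviral control and ChREBP-overexpressing lines at day 7 of differentiation, 4 libraries each, whose labels do not say that they are separate cultures. The study's methods give at least 4 independent replicates for each sequenced group. Mlxipl was lower in ChMKO than in F/F GC in every setting (3.30 ± 0.15 against 8.63 ± 1.05 FPKM under Norm, SD, n = 4) and reached 83.5 ± 19.1 against 11.3 ± 0.75 FPKM with AAV-ChREBP (SD, n = 5).

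Adult mouse hemoglobin joins alpha chains, encoded by the neighboring copies Hba-a1 and Hba-a2 on chromosome 11, with beta chains, encoded by Hbb-bs and Hbb-bt on chromosome 7. These messages are made in red cell precursors and persist in reticulocytes, young red cells that have lost the nucleus and still circulate with RNA. Heme, the iron-holding group of both proteins, begins with aminolevulinate synthase, which red cell precursors make from the X-linked gene Alas2 and all other tissues from Alas1. Myoglobin, from Mb, is a single-chain heme protein of muscle fibers that stores oxygen and is known to be abundant in slow, oxidative fibers. The globins and Alas2 are therefore used as markers of blood in a whole-muscle library and Mb as a marker of its fibers. The tissue had been rinsed in cold saline before freezing.

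The upstream sequences of the blood genes are shown because these genes moved together in the muscle tables, Hba-a2 least closely in the stress table. Each run is the 250 bases before the annotated start in RefSeq on GRCm38.p6, printed 5′ to 3′ on the gene's strand, with GATAA, the core of the site read by GATA factors, and CACCC, the core read by the red cell factor KLF1, in capitals on either strand. They lie at chr11:32283422-32283671 (Hba-a1, plus strand), chr11:32296242-32296491 (Hba-a2, plus strand), chr7:103827929-103828178 (Hbb-bs, minus strand), chr7:103813924-103814173 (Hbb-bt, minus strand) and chrX:150547167-150547416 (Alas2, plus strand).
Hba-a1: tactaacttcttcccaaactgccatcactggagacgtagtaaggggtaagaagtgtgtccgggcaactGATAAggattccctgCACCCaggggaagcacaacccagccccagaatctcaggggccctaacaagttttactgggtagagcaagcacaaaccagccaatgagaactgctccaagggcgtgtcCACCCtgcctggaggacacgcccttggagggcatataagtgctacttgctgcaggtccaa
Hba-a2: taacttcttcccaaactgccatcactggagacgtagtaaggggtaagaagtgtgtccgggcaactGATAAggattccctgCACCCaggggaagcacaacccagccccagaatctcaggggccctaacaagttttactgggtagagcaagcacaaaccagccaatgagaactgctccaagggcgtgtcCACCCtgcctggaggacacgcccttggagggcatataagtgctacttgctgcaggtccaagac
Hbb-bs: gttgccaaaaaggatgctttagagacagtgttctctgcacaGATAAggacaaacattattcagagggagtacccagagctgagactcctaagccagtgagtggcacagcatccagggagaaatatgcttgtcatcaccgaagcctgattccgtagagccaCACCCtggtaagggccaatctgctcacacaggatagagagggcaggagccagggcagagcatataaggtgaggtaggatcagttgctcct
Hbb-bt: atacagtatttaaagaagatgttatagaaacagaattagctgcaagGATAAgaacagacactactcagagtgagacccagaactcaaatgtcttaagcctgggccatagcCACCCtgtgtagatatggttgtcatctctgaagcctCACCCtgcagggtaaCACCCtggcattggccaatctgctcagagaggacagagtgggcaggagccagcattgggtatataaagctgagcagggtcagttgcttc
Alas2: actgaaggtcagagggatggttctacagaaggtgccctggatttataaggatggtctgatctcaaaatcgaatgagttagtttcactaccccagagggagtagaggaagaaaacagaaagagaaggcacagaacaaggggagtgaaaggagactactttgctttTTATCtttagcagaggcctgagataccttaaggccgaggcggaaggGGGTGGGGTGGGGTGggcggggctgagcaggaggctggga

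Each of the 5 windows held GATAA 1 time, and CACCC occurred in all 5. Counted from the annotated start, the GATAA match began at position -182 in Hba-a1, -185 in Hba-a2, -209 in Hbb-bs and -204 in Hbb-bt, and in Alas2 it lay on the other strand at -86. CACCC occurred 1 time in Hbb-bs, 2 times in both alpha genes and 3 times in Hbb-bt and Alas2. Over 32536 windows of the same length, 22.5% held GATAA on either strand, 52.1% held CACCC and 10.1% held both. The 2 annotated windows of Alas1 and the 3 of Mb held no GATAA, while CACCC was in both windows of Alas1 and in 2 of the 3 of Mb. The core read by hypoxia-inducible factors has an A or a G first. The form ACGTG was in no window of the 7 genes and in 16.7% of all windows, and the form GCGTG was found 2 times in each alpha gene window, 1 time in 1 of the windows of Alas1, in none of the other members and in 28.3% of all windows. These are matches of letters and say nothing about binding.

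The copies of each globin are so alike that their separate values have to be read with care. The coding sequences of Hba-a1 and Hba-a2, each of 429 bases, differed at 1 position, C381T counted from the first base of the start codon, and those of Hbb-bs and Hbb-bt, each of 444 bases, also differed at 1, C417T (Hba-a1 or Hbb-bs base first, GENCODE transcripts). The longest identical coding runs were 380 and 416 bases. The stretches below show coding positions 351 to 410 of the alpha pair and 385 to 444 of the beta pair, with the differing base in capitals, since a read that covers neither this base nor the differing ends of the transcripts cannot be assigned to 1 copy.
Hba-a1: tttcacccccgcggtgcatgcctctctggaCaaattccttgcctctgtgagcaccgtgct
Hba-a2: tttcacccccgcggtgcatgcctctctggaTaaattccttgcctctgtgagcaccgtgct
Hbb-bs: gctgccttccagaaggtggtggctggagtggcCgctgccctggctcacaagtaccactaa
Hbb-bt: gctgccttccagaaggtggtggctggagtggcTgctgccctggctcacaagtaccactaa

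The share given to each copy changed from table to table. Hba-a2 made up 0.275% to 4.38% of the alpha sum (Hba-a1 plus Hba-a2) in the 24 stress libraries, 6.61% to 15.3% in the 20 chow libraries and 37.6% to 43.1% in the 10 AAV libraries. The ranges of the 3 tables did not overlap. Hbb-bt made up 8.89% to 14.6%, 9.78% to 16.4% and 16.5% to 20.3% of the beta sum. The ratio of beta sum to alpha sum ran from 1.61 to 2.52 in the stress table, 0.724 to 1.17 in the chow table and 0.493 to 0.636 in the AAV table. The tables were made separately, so copy shares are compared only within a table below, and the summed globins are given beside them.

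All 54 muscle libraries held blood messages. The 4 globins summed to 61.4 to 829 FPKM in the stress table, 61.2 to 350 in the chow table and 370 to 987 in the AAV table, or 0.0124% to 0.289% of all FPKM of a library. Mb alone took 0.0410% to 1.44%. The stress table allowed whole read numbers to be recovered at 14473169 to 23460511 reads per library, and these gave 597 to 5966 reads for Hbb-bs, 266 to 3533 for Hba-a1, 61 to 898 for Hbb-bt, 38 to 426 for Alas2 and 3 to 44 for Hba-a2. Alas1 had 1310 to 2503 reads and Mb 10863 to 30955. Hba-a2 was thus the 1 member whose stress values rest on few reads, and in the other tables the depth is unknown.

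The globins and Alas2 were nearly the whole of the red cell signal that could be measured. Of 18 other genes of red cells and their precursors, 17 were listed in the stress table and 16 of these stayed under 0.5 FPKM in all 24 libraries. Slc4a1, the anion exchanger of the red cell membrane, reached at most 0.191 FPKM over the 54 muscle libraries, and Klf1, the red cell factor, at most 0.311. The other hemoglobin-type genes of the embryo were low as well, and of 10 other globins only Cygb, the cytoglobin of connective tissue cells, passed the filter of a mean of 0.5 FPKM in the stress, chow and AAV tables.

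**Figure D1:**
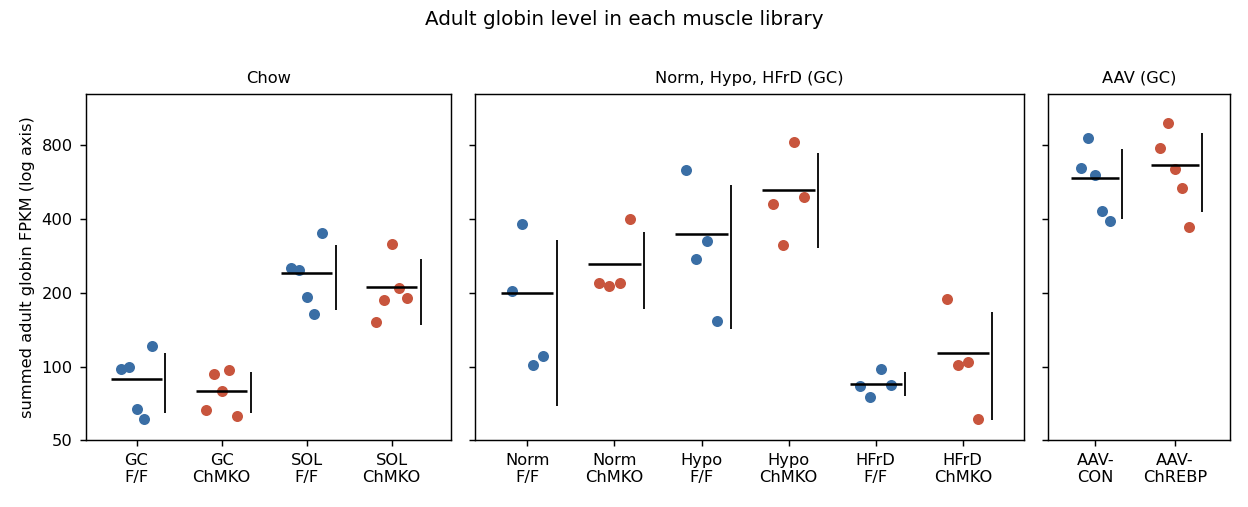
Summed FPKM of Hba-a1, Hba-a2, Hbb-bs and Hbb-bt (log axis) in each muscle library, by group and table. Points are libraries, horizontal bars are means and vertical lines ± SD. All 10 SOL libraries (152 to 350) lie above all 10 GC libraries (61.2 to 121), while Hypo (154 to 829) and Norm (102 to 401.4) overlap.

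Soleus held more blood message and far more myoglobin than gastrocnemius. Hba-a1 in GC of F/F mice 57, 58, 69, 70 and 71 was 45.0, 44.9, 33.5, 29.0 and 51.2 FPKM, and in SOL of the same-numbered mice 118, 113, 85.7, 76.7 and 165 FPKM. In ChMKO mice 59, 60, 61, 72 and 74 it was 29.4, 41.7, 36.2, 43.1 and 29.3 FPKM in GC and 70.8, 89.8, 146, 99.99 and 89.2 FPKM in SOL. The lowest SOL library stood above the highest GC library, and mouse 71, highest in GC, was also highest in SOL. Hba-a1 was 1.41 ± 0.15 higher in SOL on the log2 scale as the mean of both genotypes (SE, 95% interval 1.11 to 1.72, 10 libraries per muscle, limma adjusted p = 6.87e-08). In whole tissue, more cells of a type and more RNA per cell cannot be told apart.

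The beta chain gave the same picture. Hbb-bs in F/F mice 57, 58, 69, 70 and 71 was 42.0, 45.7, 24.8, 25.4 and 55.2 FPKM in GC and 98.6, 107, 82.4, 65.6 and 144 FPKM in SOL. In ChMKO mice 59, 60, 61, 72 and 74 it was 29.9, 42.1, 34.2, 43.5 and 25.98 FPKM in GC and 59.7, 68.5, 134, 87.5 and 73.9 FPKM in SOL. Again no SOL library reached down into the GC range. The log2 difference was 1.29 ± 0.18 for Hbb-bs (limma adjusted p = 2.50e-06), 1.28 ± 0.17 for Hbb-bt (2.09e-06) and 1.58 ± 0.15 for Hba-a2 (1.68e-08). With near-identical copies added together, the alpha sum was 1.45 and the beta sum 1.31 higher (limma adjusted p = 2.67e-08 and 1.85e-06).

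Alas2, the red cell form of the enzyme, moved with the globins. It ran from 0.632 to 1.94 FPKM in the 10 GC libraries (median 1.11) and from 1.97 to 4.52 in the 10 SOL libraries (median 3.00). The highest GC value, in mouse 71, lay just under the lowest SOL value, in mouse 70. The log2 difference was 0.89 ± 0.13 (limma adjusted p = 3.81e-06), on a scale with 1 FPKM added that understates changes at such low levels. Alas1, the form of other tissues, had a much smaller difference of 0.34 ± 0.10 (limma adjusted p = 0.00656), with means of 41.3 FPKM in SOL and 32.3 in GC and overlapping ranges. Its 95% interval of 0.13 to 0.56 lies below the intervals of Alas2 and of the 4 globins.

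Mb showed the largest difference of the 7 genes. In F/F mice 57, 58, 69, 70 and 71, Mb was 1251, 2295, 978, 1574 and 1049 FPKM in GC and 6200, 7779, 6510, 6217 and 8278 FPKM in SOL. In ChMKO mice 59, 60, 61, 72 and 74 it was 1239, 784, 1826, 1764 and 1012 FPKM in GC and 7610, 7337, 7303, 7673 and 7134 FPKM in SOL. The SOL values of ChMKO mice lay within a narrow band, and the lowest SOL library was far above the highest GC library. Mb was 2.45 ± 0.16 higher in SOL on the log2 scale (limma adjusted p = 7.88e-11), a difference larger than that of 99.5% of all genes tested. Slow fiber genes differed the same way: all 5 of the list were called higher, with a median log2 difference of 7.60, and Myh7, the slow myosin heavy chain, averaged 1943 FPKM in F/F SOL against 15.0 in F/F GC.

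All 7 genes were thus called higher in SOL, a direction in which 49.3% of the 13176 genes tested were called. The libraries of the muscles did not overlap for 6 of the 7, Alas1 being the exception, against 24.6% of all genes in either direction. The median log2 difference of all genes was 0.17, so levels are given here relative to a table that leans toward SOL. With each library rescaled to remove that lean, Hba-a1 was 1.21, Hbb-bs 1.09, Alas2 0.76 and Mb 2.25 higher and still called, whereas the Alas1 difference was 0.14 (limma adjusted p = 0.249) and was no longer called. In F/F alone 6 of 7 were called higher (37.9% of all genes) and Alas1 was not (0.31 ± 0.18, limma adjusted p = 0.160), although it was without the SOL library of mouse 71 (0.46, adjusted p = 0.0119). In ChMKO alone all 7 were called higher (41.0% of all genes). No gene of the 7 had a SOL-to-GC difference that itself differed between genotypes (0.00759% of all genes called). For Mb that difference of differences was 0.20, with a 95% interval of -0.46 to 0.86.

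Endothelial genes moved with the globins between the muscles. All 6 tested genes of the endothelial list were called higher in SOL, where 49.3% of all genes were, with a median log2 difference of 1.13. The summed list ran from 49.5 to 93.7 FPKM in GC and from 114 to 244 in SOL. Cdh5, the cadherin that joins vessel lining cells, averaged 37.0 FPKM in SOL and 18.3 in GC. Adipocyte genes moved the same way, with 5 of 5 called higher, a median of 0.93, and a summed level of 2.33 to 26.9 FPKM in GC and 7.00 to 67.8 in SOL. Per FPKM of Cdh5, the summed globins came to 2.68 to 6.76 in GC (median 4.86) and 4.18 to 12.2 in SOL (median 5.87), ranges that overlap. This ratio was chosen after the values were seen and is a description without a test, and the part of vessel or fat content in the globin difference was not tested. Alb, the albumin of liver, passed 10 FPKM in GC of F/F mouse 58 and SOL of ChMKO mouse 74, and without both libraries Hba-a1 was 1.45 and Alas2 0.90 higher in SOL.

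The rest of the heme pathway was mixed. Of 12 other genes of heme synthesis, 8 were called higher and 3 lower in SOL, with a median log2 difference of 0.25, where 49.3% of all genes were called higher and 18.6% lower. Alad, the second enzyme of the pathway, rose most (1.00 ± 0.07, 7.31 against 3.17 FPKM), followed by Tmem14c, a mitochondrial porphyrin transporter (0.47). Slc25a37, the mitochondrial iron importer mitoferrin 1, differed by -0.55 ± 0.06 with no overlap of the libraries (2.96 against 4.80 FPKM), and Cpox, a late enzyme of the pathway, was lower too (-0.38). Of 9 genes of heme breakdown and transport, 4 were called higher and 1 lower: Hp, the plasma carrier of free hemoglobin, by 1.34, Pgrmc1, a heme-binding membrane protein, by 0.66 and Blvrb, a biliverdin reductase, by 0.60, while Hmox1, the inducible heme oxygenase, differed by -0.47. Of 11 iron genes, 2 were called higher and 4 lower, with the iron exporter Slc40a1 lowest (-1.21), then the iron importer Slc11a2 (-0.40) and the ferrireductase Steap3 (-0.35), and the ferritin chain Ftl1 higher (0.26). Cygb was higher by 0.77.

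**Figure D2:**
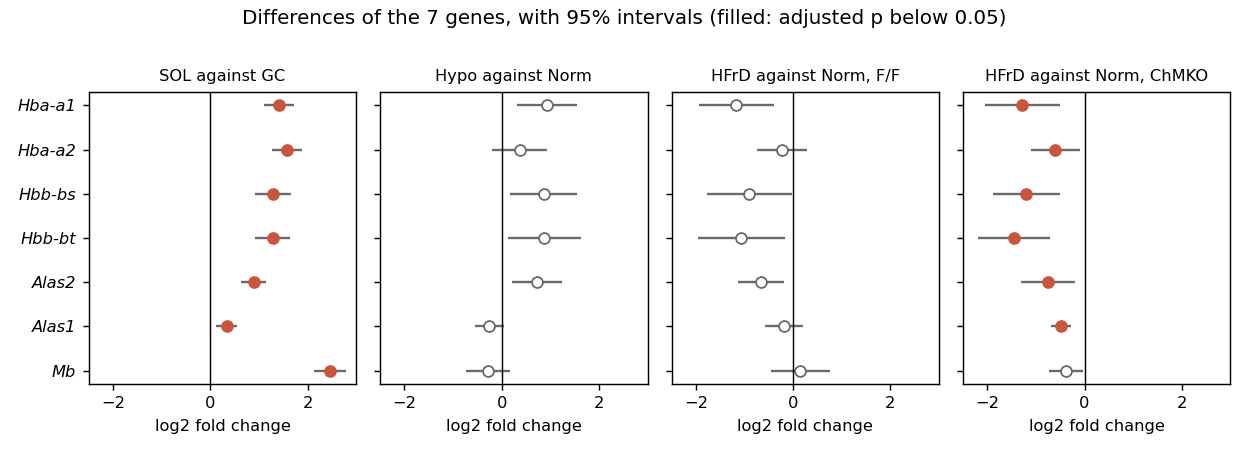
Log2 fold changes of the 7 genes with 95% intervals in 4 comparisons, as titled above each panel, filled where the limma adjusted p is below 0.05. In SOL against GC all 7 are filled, from 0.34 (Alas1) to 2.45 (Mb), while in Hypo against Norm the globin and Alas2 points lie between 0.37 and 0.93 and none is filled.

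Hypoxia is known to raise red cell production, and the globins and Alas2 were higher on average in GC of hypoxic mice, without any of the 7 genes passing the test over all genes. Hba-a1 under Norm was 68.0, 126, 37.2 and 40.3 FPKM in F/F mice N_WTc368, N_WTc369, N_WTc397 and N_WTc401 (named as labelled) and 69.7, 71.3, 69.7 and 124 FPKM in ChMKO mice N_KO_370, N_KO_374, N_KO_375 and N_KO_380. Under Hypo it was 210, 92.4, 119 and 58.3 FPKM in F/F mice H_WTc341, H_WTc348, H_WTc360 and H_WTc361 and 157, 106, 269 and 172 FPKM in ChMKO mice H_KOc332, H_KOc333, H_KOc340 and H_KOc345. The conditions overlapped: Norm mice N_WTc369 and N_KO_380 stood above 4 of the 8 Hypo mice, and Hypo mouse H_WTc361 lay below 6 of the 8 Norm mice. The mean was 148 FPKM in Hypo and 75.9 in Norm, a log2 difference of 0.93 ± 0.29 (SE, 95% interval 0.31 to 1.56, 8 libraries each, limma adjusted p = 0.121).

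Hbb-bs behaved alike. Under Norm it was 117, 223, 57.1 and 62.4 FPKM in the F/F mice and 133, 121, 130 and 233 FPKM in the ChMKO mice, in the same order. Under Hypo it was 367, 161, 184 and 84.5 FPKM in F/F and 259, 177, 480 and 274 FPKM in ChMKO. Mouse H_KOc340 was the highest and mouse N_WTc397 the lowest of the 16 for both chains. The log2 difference was 0.86 ± 0.32 for Hbb-bs (limma adjusted p = 0.201) and 0.88 ± 0.36 for Hbb-bt (0.238), and 0.37 ± 0.26 for the sparsely counted Hba-a2 (0.544). The alpha sum gave 0.93 (limma adjusted p = 0.122) and the beta sum 0.87 (0.205).

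Alas2 was 2.16, 4.16, 1.45 and 1.67 FPKM in Norm F/F and 3.16, 3.17, 2.21 and 5.46 FPKM in Norm ChMKO mice. In Hypo it was 8.74, 3.54, 3.81 and 2.19 FPKM in F/F and 6.23, 3.74, 10.96 and 6.72 FPKM in ChMKO mice. The order of the mice was close to that of the globins, with H_KOc340 and H_WTc341 highest. The log2 difference was 0.73 ± 0.24 (limma adjusted p = 0.148). Alas1 leaned the other way, with means of 16.0 FPKM in Hypo and 19.1 in Norm (-0.25 ± 0.14, limma adjusted p = 0.417), as did Mb, with 683 and 828 FPKM (-0.28 ± 0.21, 95% interval -0.74 to 0.17, limma adjusted p = 0.570).

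None of the 7 genes was called (adjusted p below 0.05) in Hypo against Norm, where 1.5% of 10751 genes were, and 4 of the 7 had an unadjusted p below 0.05, as did 1695 of all genes. The differences of Hba-a1, Hbb-bs, Hbb-bt and Alas2 were larger than those of at least 99.6% of all genes, which is a description of their size and not a test. In F/F alone none was called, and neither was any other gene (0.0% of all genes, with 411 at an unadjusted p below 0.05), with differences of 0.84 for Hba-a1, 0.82 for Hbb-bs and 0.67 for Alas2. In ChMKO alone none was called by adjusted p (0.89% of all genes), with 1.03 for Hba-a1 (limma adjusted p = 0.112), 0.90 for Hbb-bs (0.176), 1.03 for Hbb-bt (0.178) and 0.78 for Alas2 (0.210). Without ChMKO mouse H_KOc333, the lowest of its Hypo group, Hba-a1 was called in ChMKO (1.25, adjusted p = 0.0493). The study's own criterion, a log2 fold change of at least 1 with an unadjusted p below 0.05, was met by Hba-a1 and Hbb-bt in ChMKO, against 0.253% of all genes in that direction. The hypoxia difference of no member differed between genotypes (0.0% of all genes called). For Hba-a1 this difference of differences was 0.20, with a 95% interval of -1.05 to 1.44.

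The endothelial list held 0 called genes of 7 under hypoxia, and none had an unadjusted p below 0.05, with a median log2 difference of -0.05 beside a median of -0.05 over all genes. Cdh5 averaged 32.4 FPKM in Hypo and 33.8 in Norm. The summed globins per FPKM of Cdh5 were 5.46 to 9.68 in Norm (median 5.75) and 7.36 to 18.1 in Hypo (median 13.5), again a description chosen after the values were seen. Cdh5 did split the Norm F/F libraries, at 17.97 to 20.0 FPKM in mice N_WTc397 and N_WTc401 and 37.1 to 41.7 in mice N_WTc368 and N_WTc369, and the same N_WTc397 and N_WTc401 had the lowest globins. In Hypo F/F it was 20.9 FPKM in H_WTc361, which had the lowest Hypo globins, 21.6 in H_WTc360, 31.1 in H_WTc348 and 41.1 in H_WTc341, which had the highest of that group. Alb passed 10 FPKM in Norm F/F mouse N_WTc368, in Hypo F/F mouse H_WTc360 and in all 4 Norm ChMKO mice (15.2 to 181 FPKM). Without N_WTc368 and H_WTc360, the mean difference was 0.94 for Hba-a1 and 0.74 for Alas2 and neither was called.

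Around the 7 genes, 2 genes of the heme and iron pathways were called under hypoxia, where 1.5% of all genes were called and the conditions did not overlap for 0.437%. Of 12 genes of heme synthesis 1 was called, Slc25a37, the iron importer of mitochondria, with -0.41 ± 0.06 and no overlap of the conditions (4.05 FPKM in Hypo and 5.67 in Norm). Of 11 genes of heme breakdown and transport 0 were called. Of 12 iron genes 1 was called, Slc11a2, the divalent metal transporter, with -0.37 ± 0.08. Slow fiber genes were higher on average, by a median of 2.46 over 4 tested, and Tnni1, the slow troponin I, was the 1 called (2.42, limma adjusted p = 0.0404). Mb, also known as a gene of oxidative fibers, had the value of -0.28 given above.

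**Figure D3:**
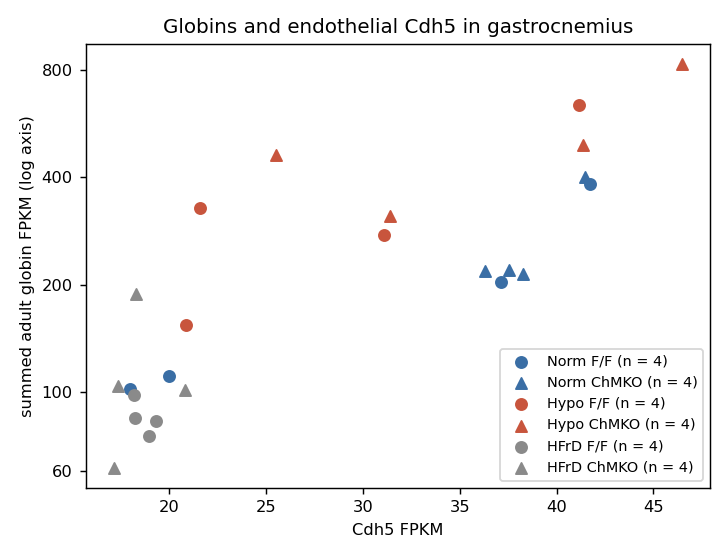
Summed adult globin FPKM (log axis) against Cdh5 FPKM in each GC library of the stress table, colored by condition (circles F/F, triangles ChMKO). Hypo libraries have 7.36 to 18.1 globin FPKM per FPKM of Cdh5 and Norm libraries 5.46 to 9.68, and the HFrD libraries lie between 17.2 and 20.8 FPKM of Cdh5.

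After 3 months of fructose the globins and Alas2 were called lower in ChMKO and not in F/F mice, and the difference between the genotypes was not tested. The comparison shares the Norm libraries with the hypoxia comparison, and diet, age at sampling and cohort cannot be told apart in it. In ChMKO mice KO_C291, KO_C293, KO_C299 and KO_C309 on HFrD, Hba-a1 was 61.05, 31.7, 35.7 and 16.7 FPKM and Hbb-bs 113, 62.7, 60.1 and 39.6 FPKM, all below the 4 Norm ChMKO values given above. The groups did not overlap for 4 of the 7 members, beside 6144 of all 10733 genes tested. Alas2 was 2.87, 1.57, 1.39 and 0.889 FPKM, with mouse KO_C291 inside the Norm range. The log2 difference was -1.28 ± 0.34 for Hba-a1 (limma adjusted p = 0.00961), -1.20 ± 0.31 for Hbb-bs (0.00719), -1.45 ± 0.33 for Hbb-bt (0.00411), -0.60 ± 0.22 for Hba-a2 (0.0395) and -0.75 ± 0.25 for Alas2 (0.0240). Alas1 differed by -0.48 ± 0.09 (0.00144), and Mb differed by -0.38 ± 0.15 (0.0504). So 6 of 7 members were called lower, where 44.6% of all genes were called lower and the median of all genes was -0.17. The liver gene Alb was at 15.2 to 181 FPKM in all 4 Norm ChMKO libraries and at 0.0869 to 0.217 in all 4 HFrD ChMKO libraries, and its part in these calls was not tested. With each library rescaled for the median shift of all genes, and not for Alb, Hba-a1 was -1.08, Hbb-bt -1.26 and Alas1 -0.29. These 3 and Hbb-bs were still called, while Alas2 (-0.61, limma adjusted p = 0.0668) and Hba-a2 (-0.49, 0.0984) were not. The call of Alas2 was also lost without N_KO_380, KO_C299 or KO_C309 (-0.71 to -0.56, limma adjusted p 0.0521 to 0.0634), that of Hba-a2 without N_KO_374, KO_C293, KO_C299 or KO_C309 (-0.60 to -0.54, 0.0750 to 0.0913), and Mb was called lower without N_KO_375 (-0.47, 0.0240) or KO_C299 (-0.45, 0.0389).

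In F/F mice WT_C292, WT_C294, WT_C301 and WT_C310 on HFrD, Hba-a1 was 23.98, 24.4, 31.7 and 25.5 FPKM, below all 4 Norm F/F mice. Hbb-bs was 51.9, 45.1, 59.98 and 52.7 FPKM, and mouse WT_C301 stood above Norm mouse N_WTc397. The 4 F/F mice on HFrD lay close together in both chains. The log2 difference was -1.16 ± 0.34 for Hba-a1 (limma adjusted p = 0.155), -0.90 ± 0.38 for Hbb-bs (0.204), -1.06 ± 0.40 for Hbb-bt (0.185) and -0.66 ± 0.21 for Alas2 (0.163). None of the 7 was called, and neither was any other gene (0.0% of all genes, with 2531 at an unadjusted p below 0.05), and the groups did not overlap for 3, Hba-a1, Hbb-bt and Alas2, against 16.2% of all genes. Mb differed by 0.15 ± 0.27 (0.715).

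Endothelial genes were lower on the diet as well: 6 of 7 were called in ChMKO, with a median of -0.67, and 0 in F/F, with a median of -0.37. They were not alone in ChMKO, where 3 of 3 skeletal muscle genes (median -0.67), 2 of 3 fibroblast genes (-0.76), 3 of 7 leukocyte genes (-0.43) and the 1 platelet gene tested (-0.63) were called lower too, where 44.6% of all genes were. Of 5 adipocyte genes (median 0.45) and 4 Schwann cell genes (-0.32), 1 each was called higher and 0 lower. The endothelial sum was 49.4 to 65.0 FPKM in HFrD ChMKO and 51.7 to 61.7 in HFrD F/F, against 91.8 to 108 in Norm ChMKO and 49.8 to 107 in Norm F/F. The HFrD range of Cdh5, 17.2 to 20.8 FPKM, included the Norm F/F mice with low Cdh5, N_WTc397 and N_WTc401. Their globin sums of 102 and 111 FPKM were above the 75.1 to 98.1 FPKM of the 4 HFrD F/F mice. In ChMKO, KO_C291 had 189 FPKM of globins at 18.3 FPKM of Cdh5. Per FPKM of Cdh5, a ratio chosen after the values were seen, the summed globins came to 3.58 to 10.3 in HFrD ChMKO (median 5.43) and 5.59 to 9.68 in Norm ChMKO (median 5.93), ranges that overlap. In F/F they came to 3.96 to 5.39 with HFrD and 5.46 to 9.17 with Norm, ranges that do not overlap. The fibroblast sum was 40.9 to 52.1 FPKM in HFrD ChMKO and 96.0 to 227 in Norm ChMKO, and the leukocyte sum 31.4 to 45.8 and 50.5 to 105. The part of vessel or other cell content in the diet difference was not tested. The age of the Norm mice at sampling is not given in the sources used here.

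Of the heme synthesis list, 11 of 12 genes were called lower on HFrD in ChMKO, with a median of -0.28, among them Slc25a39 (-0.67), the mitochondrial glutathione importer, and Urod (-0.57), an enzyme of the pathway. Of 11 genes of heme breakdown and transport, 2 were called higher and 5 lower, and of 12 iron genes 1 and 7. These counts stand beside the 44.6% of all genes called lower and the 19.4% called higher, and in F/F 0 of 12, 0 of 10 and 0 of 11 were called.

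Deletion of ChREBP in muscle gave no call for any of the 7 genes. In chow GC none was called (0.0236% of all genes called) and the log2 differences, ChMKO minus F/F, ran from -0.21 (Hba-a2) to 0.15 (Alas1). In chow SOL none was called (0.0225%), with -0.24 for Hbb-bs (95% interval -0.76 to 0.28), 0.01 for Alas2 and 0.09 for Mb (-0.13 to 0.31). The genotypes overlapped in both muscles.

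In the stress table the ChMKO means were higher for all 7 genes under Norm and under Hypo, again without a call (0.00922% and 0.00941% of all genes). Under Norm, Hba-a1 differed by 0.43 (95% interval -0.43 to 1.28) and Hba-a2 by 0.80 (0.12 to 1.47, limma adjusted p = 0.419). Under Hypo, Hba-a1 differed by 0.62 (-0.23 to 1.47), Hbb-bt by 0.96 (-0.05 to 1.97) and Mb by 0.04 (-0.61 to 0.69). Under HFrD none was called (0.019%), with 0.31 for Hba-a1 (-0.37 to 1.00), 0.43 for Hba-a2 (0.16 to 0.71, limma adjusted p = 0.585) and -0.32 for Mb (-0.65 to 0.00). The intervals include 0 for the values given here except those of Hba-a2 under Norm and HFrD, the member with the fewest reads. Endothelial sums also had higher medians in ChMKO, under Norm (91.8 to 108, median 93.8, against 49.8 to 107, median 74.8 FPKM) and under Hypo (73.0 to 118, median 92.1, against 55.7 to 104, median 69.5 FPKM), with 0 of 7 called in each. Leukocyte genes had higher ChMKO means for 3 of 7 under Norm and 7 of 7 under Hypo (median 0.42), with 0 called.

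Injected muscle carried much blood message in both arms. Hba-a1 in AAV-CON libraries 1, 3, 4, 7 and 8 was 229, 331, 235, 161 and 161 FPKM, and in AAV-ChREBP libraries 1, 3, 4, 7 and 8 it was 297, 371, 241, 198 and 140 FPKM. Hbb-bs was 204, 270, 184, 134 and 104 FPKM with AAV-CON and 233, 313, 204, 166 and 111 FPKM with AAV-ChREBP. The arms overlapped throughout, with library 3 highest and library 8 lowest or nearly lowest in each. None of the 7 genes was called (0.00904% of all genes): the log2 difference was 0.13 ± 0.26 for Hba-a1 (95% interval -0.42 to 0.69), 0.19 ± 0.28 for Hbb-bs and 0.13 ± 0.19 for Alas2. Mb was 467, 648, 140, 548 and 377 FPKM with AAV-CON and 242, 263, 360, 470 and 359 FPKM with AAV-ChREBP (-0.24 ± 0.35, limma adjusted p = 1.00). Same-numbered libraries deviated together. Between libraries of the same number, Hbb-bs and Hbb-bt were higher with AAV-ChREBP in 5 of 5 pairs, Hba-a1 and Hba-a2 in 4, Alas2 and Alas1 in 2 and Mb in 1. The pairing was taken from the data alone, the 4 globins share their source, and the share of all genes with such counts was not determined. A fit with the number as a block also called none, with 0.19 ± 0.20 for Hbb-bs (limma adjusted p = 0.934) and 0.24 ± 0.18 for Hbb-bt (0.927).

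The level of globin across tables is set across tables normalized separately. The summed globins were 370 to 987 FPKM in the AAV libraries, 102 to 401.4 in Norm GC and 61.2 to 121 in chow GC. Per FPKM of Cdh5 they were 18.3 to 53.2 in the AAV table, 5.46 to 9.68 in Norm and 2.68 to 6.76 in chow GC. Injection, mouse line and table cannot be told apart.

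C2C12 cultures hold no blood, and there Hba-a2, Hbb-bs and Hbb-bt were listed at 0 in all 8 libraries, Alas2 at 0 to 0.07 FPKM. Hba-a1 was listed nevertheless, at 10.6, 9.89, 10.1 and 10.3 FPKM in the control libraries and 9.46, 9.30, 7.27 and 5.47 FPKM in the ChREBP-overexpressing libraries. Whether Hba-a1 and the globin sums of muscle also hold a part from outside blood was not tested. The lines did not overlap for Hba-a1, nor for 3750 of all 11971 genes tested, and the spread of Hba-a1 was wider with overexpression. The log2 difference of -0.37 ± 0.13 was called (limma adjusted p = 0.0469), and the call was lost when any single control library, or overexpressing library 3 or 4, was left out (limma adjusted p 0.0585 to 0.103). The difference was then -0.38 to -0.34, except without overexpressing library 4, which had the lowest value and without which it was -0.22. Mb, at 18.3, 18.9, 17.5 and 17.9 FPKM in controls, was 22.0, 20.8, 22.2 and 24.02 FPKM with overexpression, without overlap (0.28 ± 0.04, limma adjusted p = 6.77e-04). Alas1 was 16.1 to 17.3 and 16.2 to 17.9 FPKM (0.03 ± 0.04, 0.558). Thus 2 of the 3 members that could be tested were called, beside 30.5% of all genes, and slow fiber genes, 4 of 4 tested, were called higher as well.

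**Figure D4:**
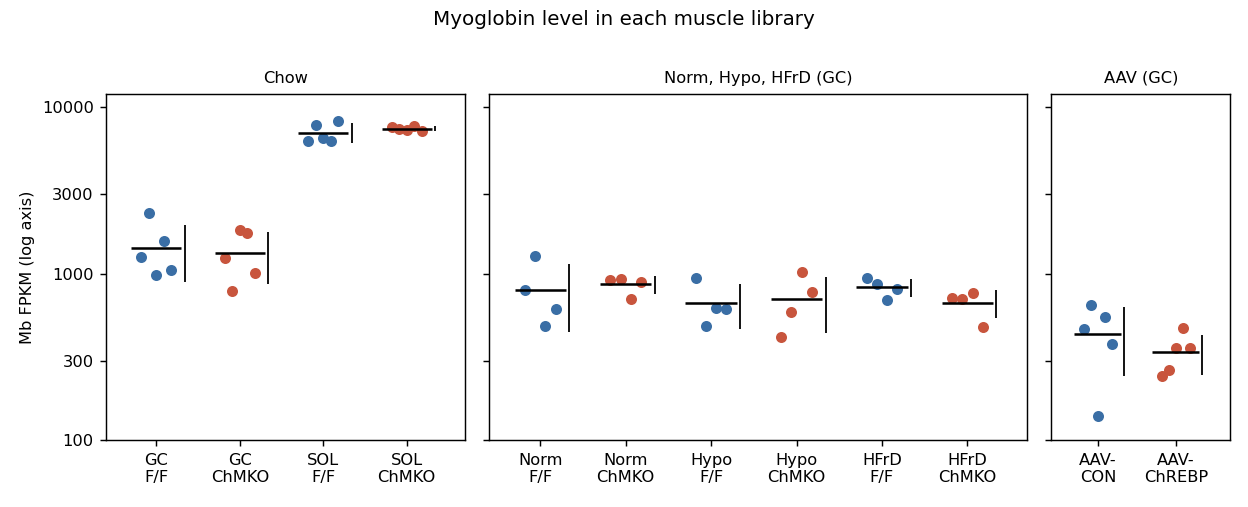
Mb FPKM (log axis) in each muscle library, by group and table. Points are libraries, horizontal bars are means and vertical lines ± SD. SOL libraries lie at 6200 to 8278 FPKM, above every GC library of the 3 muscle tables (140 to 2295).

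Within each muscle table Alas2 tracked the globins from library to library. On the log2 scale Alas2 and the summed globins had a Pearson correlation of 0.979 over the 24 stress libraries, which share a table and group differences, and of 0.941 with group means removed. In the chow table the value within groups was 0.887 (20 libraries), and in the AAV table it was 0.893 (10 libraries). The FPKM of Alas2 came to 1.36% to 2.37% of the beta sum in the stress table, 2.13% to 4.08% in the chow table and 1.28% to 2.25% in the AAV table. The mean was 1.97% ± 0.34 in Norm, 2.02% ± 0.16 in Hypo and 1.99% ± 0.35 in HFrD (SD, n = 8), means that differ by less than their SD. In GC and SOL of the chow table it was 2.79% ± 0.53 and 2.93% ± 0.55 (SD, n = 10).

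**Figure D5:**
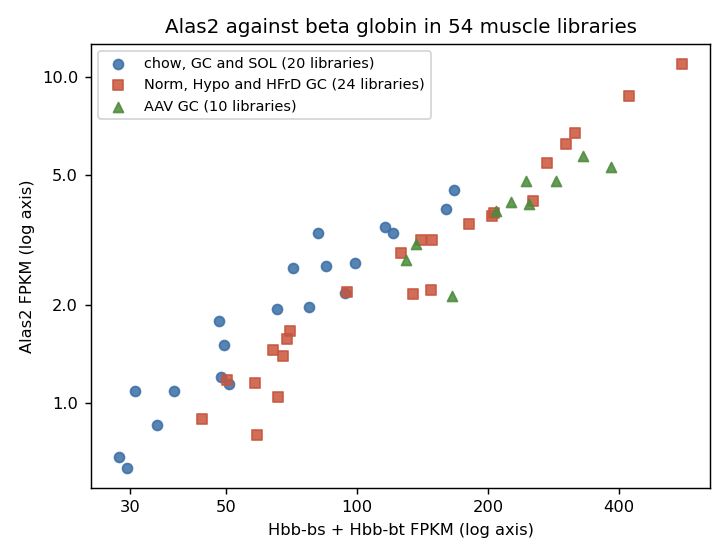
Alas2 FPKM against the sum of Hbb-bs and Hbb-bt FPKM (both axes log) in the 54 muscle libraries, colored by table. Points rise along 1 band within each table, with Alas2 at 1.28% to 4.08% of the beta globin FPKM over all tables.

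In the stress table Mb and Alas1 followed the globins less closely than Alas2. Mb had a correlation of 0.879 with the summed globins in the chow table, which spans both muscles, and of -0.167 in the AAV table. Over the 24 stress libraries the correlation with the summed globins was 0.230 for Mb and 0.512 for Alas1, and 0.713 and 0.715 with group means removed. Hba-a2, the member with few reads, had 0.744, and 0.560 with group means removed. The median of 10711 other genes was 0.376, or 0.286 with group means removed. Among genes outside the 7, Atg4d, a protease of autophagy (0.931), Mettl22 (0.927), Btbd6 (0.924), Poldip2 (0.922) and the ribosomal protein gene Rps2 (0.922) had the highest correlation with the globins, all of them below that of Alas2. Cdh5 had 0.824 and Pecam1, another endothelial gene, 0.789, or 0.746 and 0.675 with group means removed. The genes most like Mb were the phosphodiesterase gene Pde8a (0.907), Acss2 (0.903), which makes acetyl-CoA from acetate, the mitochondrial ribosomal gene Mrps9 (0.889), Ptpn3 (0.859) and Bcl2l2 (0.859), beside a median of 0.208 over the genes outside the 7 and 0.129 for Myh7. With group means removed Myh7 had 0.539 with Mb, beside a median of 0.290 over those genes. These are descriptions, over 24 libraries of 1 table unless another table is named, and carry no test.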

How the data were processed

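RNA of the muscles and cells was sequenced, and the authors deposited FPKM per gene in 4 tables. Per the labels, fastp 0.18.0, Bowtie2 2.2.8, HISAT2 2.1.0, StringTie 1.3.1 and RSEM were used on GRCm39, while gene positions in the chow table fit GRCm38. How reads shared by near-identical globin copies were split is not given in the sources used here. The 7 genes and the gene lists were chosen with earlier results of these data known. Columns were matched to samples by name. The AAV table has 5 further value columns, with the authors' group means, fold changes, p-values and FDR, which were not used.

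FPKM were transformed as log2(FPKM + 1) and fitted with limma 3.58.1 (R 4.3.3, trended empirical Bayes, two-sided), each comparison alone, with Benjamini-Hochberg adjustment over the genes kept, those averaging 0.5 FPKM or more over the libraries compared. A gene was called at an adjusted p below 0.05. The study used DESeq2 on counts, a test not run here since the deposited values are FPKM. In the stress table all values gave whole reads within 0.05, and voom on these reads was an alternative. The fits were tested on simulated data.

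Named besides the 7 genes are Mlxipl, per list and comparison of hypoxia or muscle up to 4 called genes with the largest change, and the 5 genes most correlated with the globins or Mb. Examples from the HFrD comparison, Tnni1, Cdh5, Myh7, Alb and the named red cell genes were chosen after their values were seen. Single values of some genes of the red cell list are not reported here. Soleus and gastrocnemius libraries with the same number were taken as 1 mouse, and 1 soleus library titled 59 was taken as mouse 69 from its description. Deviations of same-numbered libraries correlated at -0.02 to 0.32 (chow F/F), 0.02 to 0.05 (chow ChMKO) and 0.21 to 0.49 (AAV, pairing from the data alone). Intervals are at 95% and cover the spread between libraries.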

Additional observations from a re-analysis of the deposited data

Results flagged for a closer look

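Of 91 sets of 1 member in 1 group of 4 or 5 libraries, 4 held a library that stood far from the rest by Dixon's criterion, which chance gives in about 1 in 20 sets. Norm ChMKO mouse N_KO_380 stood apart for 3 globins at once, with 124 FPKM of Hba-a1 (next 71.3), 233 FPKM of Hbb-bs (next 133) and 39.8 FPKM of Hbb-bt (next 18.8). The same library had the most Alb of its group, 181 FPKM (next 28.7). Soleus of ChMKO mouse 61 had 25.5 FPKM of Hbb-bt (next 12.8). The globins share their source, so the 3 values of mouse N_KO_380 are not separate observations.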

How the results depend on the processing

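Of 1975 values of the 7 genes under alternative settings, 1947 kept their call or lack of one (26 of these, all uncalled, moved by more than 1 SE), 21 were no longer called and 7 were newly called. Among called values 0 changed sign. Of uncalled values, 89 changed sign, 66 of them with a size under 0.1. In C2C12 the number of members called was 1 without a filter on low values, and 1 to 2 with single libraries left out. In Hypo against Norm in ChMKO it was 0 to 1 with single libraries left out, the 1 being Hba-a1 without mouse H_KOc333. In HFrD against Norm in ChMKO it was 4 to 7. Hba-a2 was lost there without a filter, with all groups in 1 fit (adjusted p = 0.117), with voom and without 4 single mice, Alas2 without mouse N_KO_380 (adjusted p = 0.0521) or KO_C299 or KO_C309, and Mb was called with a pseudocount of 0.1, a filter at 5 FPKM, voom (adjusted p = 0.0403) and without N_KO_375 or KO_C299.

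The count of all genes called in Hypo against Norm, 161, was 60 to 196 with single libraries left out, 343 after rescaling, 670 with all groups in 1 fit and 71 without N_WTc368 and H_WTc360, an alternative added after seeing the data. The members called stayed at 0 in each of these. For HFrD against Norm in F/F the count of genes was 220 with all groups in 1 fit. With the replicate number as a block, the members called were 7 in SOL against GC (6 in F/F, 7 in ChMKO), 0 for the genotype difference of that contrast, 0 in AAV and 2 in C2C12, so the block changed no call of a member. Numbers did not pair the C2C12 libraries (correlations of -0.09 to 0.18). Depth limits Hba-a2 most, with 3 to 44 reads in the stress table.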
